A study of Mus musculus with 28 samples.

Results

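Expression of 6 SOX transcription factor genes, Sox10, Sox9, Sox4, Sox11, Sox5 and Sox6, was followed across normal mammary cells, cells expressing oncogenic PIK3CA and mammary tumours of the mouse. The 6 genes were among 17097 genes on the arrays, and 24 of the 28898 probe sets annotated to a single gene symbol read them. Of several probe sets for a gene, the brightest on average over the 28 arrays was kept, and the others were used as a check.

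SOX proteins bind DNA through an HMG box and act in families of close relatives. Sox9 and Sox10 are SOXE factors: Sox10 is best known from neural crest, glia and melanocytes and Sox9 from cartilage, and both are also linked to mammary stem and progenitor cells. Sox4 and Sox11 are SOXC factors of progenitor cells. Sox5 and Sox6 are SOXD factors, which lack an activation domain of their own and work beside Sox9 in cartilage.

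All mice were females given tamoxifen, in 3 injections of 5 mg that began when they were 4 to 5 weeks old. CREERT2, a tamoxifen-activated recombinase, was driven by the keratin 8 promoter (K8CREERT2), which is active in luminal cells, or the keratin 5 promoter (K5CREERT2), which is active in basal cells, and every group carried the RosaYFP reporter. Control groups were YFP+ luminal cells of K8CREERT2/RosaYFP mice and YFP+ basal cells of K5CREERT2/RosaYFP mice, each at 8 weeks and at 10 months after tamoxifen; they had received Cre and tamoxifen too. The K8-PIK groups were the YFP+ luminal and basal gates of the genotype K8CREERT2/PIK3CA-H1047R/RosaYFP at 8 weeks. The K5-PIK groups were the same gates of K5CREERT2/PIK3CA-H1047R/RosaYFP mice at 10 months. Each of these 8 groups had 2 arrays. FACS-sorted tumour cells came from the K8-PIK genotype (7 arrays), the K5-PIK genotype (3 arrays) and K8CREERT2/PIK3CA-H1047R/p53flox/flox/RosaYFP mice, called K8-PIK-p53 here (2 arrays), at a time the labels do not give. The series asked how PIK3CA-H1047R in 1 lineage changes cell identity, so K8-PIK basal and K5-PIK luminal cells are cells found outside the lineage in which Cre was driven. The YFP luminal and YFP basal cells came from mice of different Cre drivers, so YFP basal minus luminal differences also compare the drivers. Nothing in the labels says that arrays of a group came from separate mice, so the p-values measure the spread between these arrays.

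Median signals per array ran from 4.40 to 4.50 (log2), and arrays of a sorted group correlated at 0.973 to 0.995. All 8 basal markers examined were higher and 7 of 10 luminal markers were lower in YFP basal than in YFP luminal cells at 8 weeks, and 8 of 8 and 10 of 10 at 10 months, so the YFP gates matched their labels. In K8-PIK against YFP luminal cells at 8 weeks, 2 of 8 basal markers were higher and 0 lower. The basal keratin Krt5 read 11.16 and 9.99 against 7.45 and 8.09. The luminal factor Foxa1 read 7.89 and 8.04 in K8-PIK basal against 3.94 and 4.56 in YFP basal cells at 8 weeks. Luminal list means of these basal groups overlapped (8.88 and 9.57 against 9.14 and 9.44). The mouse Pik3ca probe set read 7.21 to 8.29 over the 28 arrays; whether it detects the PIK3CA-H1047R transgene is not given in the sources used here, and loss of p53 was not analysed here. K8-PIK tumour 3 stood apart from the other K8-PIK tumours: its median correlation with them was 0.934, against 0.956 to 0.969 for the other 6. It had the lowest values of the 7 for Krt5, a basal keratin (6.86), Krt18, a luminal keratin (9.83), and Epcam, an epithelial adhesion molecule (8.08), and its luminal list mean of 8.59 was below the 9.24 to 10.64 of the others. Other basal genes were within the range of the others: Krt14 was at 9.58, Trp63 at 7.65 and Acta2 at 10.53, and the basal list mean was 7.10 against 6.82 to 9.72. Its fibroblast list mean of 7.76 was within the 5.08 to 8.32 of the others as well. The SOX and target results named below for K8-PIK tumours are given with and without it where it moved them most.

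With the kept probe sets of the SOXC pair, Sox4 was called higher in the basal gate and Sox11 was called in no comparison; a second Sox11 probe set was called in some comparisons, as given below, and the difference between the genes was not tested. RefSeq gave promoter windows on GRCm38.p6 for Sox4, Sox11, Sox5 and Sox6, and the 250 bases before the gene start are shown for Sox4 and Sox11, the SOXC pair. Both genes lie on the minus strand, at chr13:28953700-28953949 for Sox4 and at chr12:27342719-27342968 for Sox11, and each window is upstream of the transcript. Capitals mark CCAAT on either strand (ATTGG where it lies on the other strand).
Sox4: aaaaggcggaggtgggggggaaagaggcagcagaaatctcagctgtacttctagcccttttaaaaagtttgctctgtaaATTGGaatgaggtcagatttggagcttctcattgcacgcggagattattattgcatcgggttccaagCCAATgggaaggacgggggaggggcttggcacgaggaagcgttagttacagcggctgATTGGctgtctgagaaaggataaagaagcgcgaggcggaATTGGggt
Sox11: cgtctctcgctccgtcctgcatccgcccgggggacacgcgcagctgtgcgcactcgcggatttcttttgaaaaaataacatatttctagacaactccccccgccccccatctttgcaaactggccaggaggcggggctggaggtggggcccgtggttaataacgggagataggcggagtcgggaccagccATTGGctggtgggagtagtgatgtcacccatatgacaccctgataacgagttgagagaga

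The Sox4 window held 4 copies of CCAAT, and the Sox11 window held 1. At least 1 copy is present in 33.8% of the 32851 RefSeq promoter windows of this length. The Sox4 window was 50.8% GC with 11 CpG dinucleotides and the Sox11 window 58% GC with 17, against medians of 52.4% and 6. GGGCGG, which is recognised by SP1 and occurs in 32.7% of windows, was found 2 times in the Sox11 window and not in that of Sox4. Neither window held the SOX core ACAAT (27.7% of windows) or TATAAA (12.4%), searched on both strands; no motif hits overlapped. Which start site the probe sets read is not known, and a match of letters is not a binding site.

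**Figure D1:**
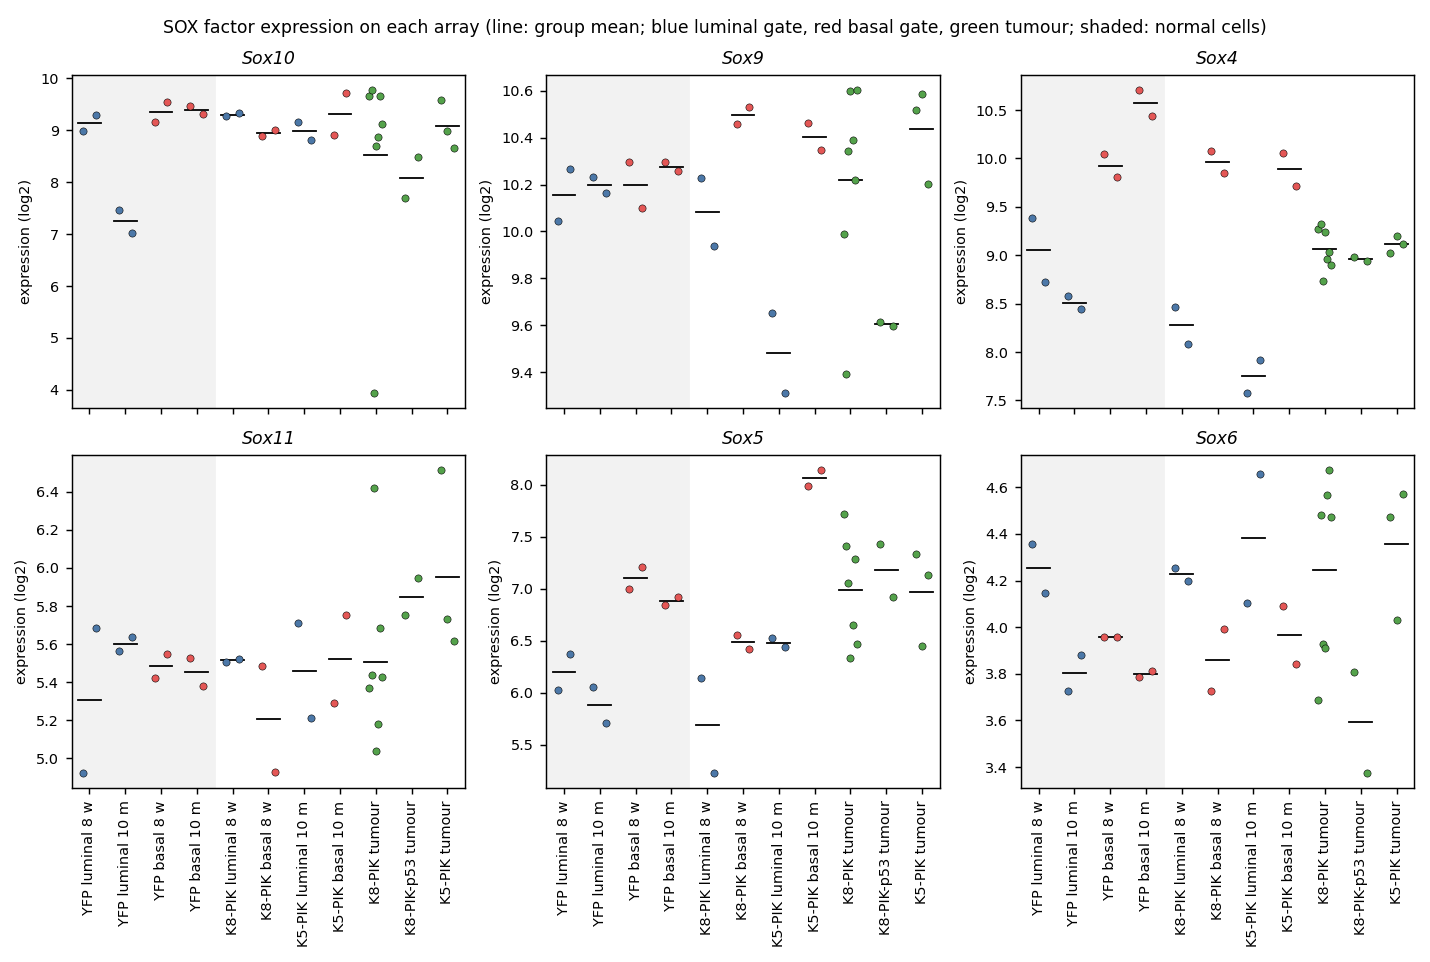
Log2 expression of the 6 SOX genes (y axis, 1 scale per gene) on each of the 28 arrays, by group on the x axis, with horizontal lines at group means; blue points are luminal, red basal and green tumour cells, and the shaded columns are the YFP controls. Sox10 lies near 9 in most groups and at 7.02 and 7.47 in YFP luminal cells at 10 months, with K8-PIK tumour 3 at 3.95, and Sox4 separates the red from the blue points.

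Sox10 was at a high and similar level in luminal and basal cells, with 1 exception among the sorted groups. It read 8.99 and 9.30 in YFP luminal cells at 8 weeks and 7.47 and 7.02 in YFP luminal cells at 10 months. YFP basal cells gave 9.17 and 9.54 at 8 weeks and 9.48 and 9.32 at 10 months. The YFP luminal arrays at 10 months were therefore below every other sorted array, and the other YFP arrays overlapped. K8-PIK cells gave 9.27 and 9.33 in the luminal and 8.90 and 9.01 in the basal gate. K5-PIK cells gave 9.15 and 8.81 in the luminal and 8.92 and 9.72 in the basal gate. Ordered by group mean, all neighbouring groups from YFP basal at 10 months (9.40) down to the K8-PIK-p53 tumours (8.09) overlapped, and only YFP luminal at 10 months (7.25) stood clear of its neighbour. The overlap of the K8-PIK-p53 tumours (7.69 and 8.49) with the K8-PIK tumours rests on K8-PIK tumour 3; the other 6 K8-PIK tumours were at 8.69 to 9.78, above both.

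In YFP luminal cells Sox10 fell by 1.90 ± 0.26 (SE) on the log2 scale between 8 weeks and 10 months, a 3.73-fold lower signal (limma adjusted p = 0.0134, 2 against 2 arrays). Among the 13150 genes tested only 0.0608% were called in this comparison, which is 8 genes. The call was lost without any 1 of the 4 arrays: the difference was -2.05 (adjusted p = 0.0508) and -1.75 (0.16) without the first and second 8-week array, and -2.13 (0.0804) and -1.67 (0.328) without the first and second 10-month array. The mean over the 3 Sox10 probe sets gave -1.57 (adjusted p = 0.053), and 1 of the 2 other probe sets passed. None of the 8 basal and 10 luminal markers was called between the ages (1 and 0 at an unadjusted p under 0.05), and the basal list mean was 6.18 and 7.04 at 8 weeks and 5.91 and 6.21 at 10 months. Its part in the result was not tested. In arrays of sorted populations, fewer cells of a type and less RNA per cell cannot be told apart.

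In YFP basal cells the difference in Sox10 between the ages was 0.05 ± 0.26 (adjusted p = 0.931). The basal minus luminal difference in Sox10 was thus 0.21 ± 0.26 at 8 weeks (adjusted p = 0.589) and 2.15 ± 0.26 at 10 months (4.45-fold, adjusted p = 4.78e-05). The test of the change in that gap with age gave 1.95 ± 0.36 and missed the threshold (adjusted p = 0.0598), in a comparison that called 0.0532% of genes.

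K5-PIK luminal cells at 10 months had more Sox10 than YFP luminal cells of the same age. Sox10 was 1.74 ± 0.26 higher in K5-PIK than in YFP luminal cells at 10 months (3.33-fold, adjusted p = 0.00333), a comparison with 6.4% of genes called. It passed with each of its 3 probe sets and without any 1 of its 4 arrays (1.51 to 1.96). The 2 groups also differ in the Cre driver and in where Cre was first active. Every Sox10 call of the main fits uses the YFP luminal arrays at 10 months, at 7.47 and 7.02, so these calls are not independent. The K5-PIK luminal arrays, at 9.15 and 8.81, overlapped the YFP luminal arrays at 8 weeks, at 8.99 and 9.30. Of the 8 basal markers, 4 were higher in K5-PIK luminal cells, with list means of 7.19 and 7.35 against 5.91 and 6.21; their part in the result was not tested.

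The basal minus luminal difference in Sox10 at 10 months was smaller in K5-PIK than in YFP mice, with a difference between the gaps of -1.82 ± 0.36 (adjusted p = 0.017), where 7.15% of genes were called. The YFP gates came from mice of different Cre drivers and both K5-PIK gates from K5CREERT2 mice. PIK3CA-H1047R and the driver cannot be told apart in this contrast. Of the 2 other probe sets 1 passed, with -1.64 (adjusted p = 0.023), and the other gave -0.75 (adjusted p = 0.274). The call was lost without the second YFP luminal array (-1.59, adjusted p = 0.0887), the first YFP basal array (-1.74, 0.0833) or the first K5-PIK luminal array (-1.65, 0.059). At 8 weeks Sox10 was 0.16 ± 0.26 higher in K8-PIK than in YFP luminal cells (adjusted p = 0.879) and 0.40 ± 0.26 lower in K8-PIK basal than in YFP basal cells (adjusted p = 0.518). A fit that pooled all 28 arrays widened the SE of these Sox10 differences from 0.26 to 1.16, and no Sox10 call between sorted groups passed in it (adjusted p from 0.168 for the basal minus luminal difference at 10 months upward). That fit included K8-PIK tumour 3: the SD of Sox10 in K8-PIK tumours was 2.07 with it and 0.47 without it. A pooled fit without that tumour was not run for these differences.

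Sox9, the other SOXE factor of the set, was nearly level in control cells and low in the luminal cells of K5-PIK mice. YFP luminal cells read 10.05 and 10.26 at 8 weeks and 10.23 and 10.16 at 10 months. YFP basal cells read 10.30 and 10.10, and 10.30 and 10.26. The gates overlapped at 8 weeks, and at 10 months the basal arrays were just above the luminal ones. K8-PIK arrays were at 10.23 and 9.94 in the luminal gate and at 10.46 and 10.53 in the basal gate. K5-PIK luminal cells gave 9.65 and 9.31 and K5-PIK basal cells 10.46 and 10.35, so the K5-PIK luminal arrays were the 2 lowest of the 16 sorted arrays.

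Sox9 fell by 0.92 ± 0.17 from the basal to the luminal gate of K5-PIK mice (1.89-fold, adjusted p = 0.00169; 23.6% of genes called), and it kept that call without any 1 of the 4 arrays. It was also 0.79 ± 0.17 lower in K5-PIK luminal than in YFP basal cells (adjusted p = 0.00311; 37.3% of genes called), but with the endothelial covariate, the mean level of 12 endothelial genes on each array, the difference was -0.60 (adjusted p = 0.163). In that comparison 9 of the 12 endothelial genes were lower, and their part in the result was not tested. Against YFP luminal cells of the same age it fell by 0.71 ± 0.17 (adjusted p = 0.0286). That last call did not hold without the first (-0.68, adjusted p = 0.179) or second (-0.75, 0.148) YFP luminal array, without the second K5-PIK luminal array (-0.55, 0.0968) or after quantile normalization (-0.62, 0.0559). Sox10 was higher in the same comparison. Basal minus luminal differences in Sox9 were 0.04 ± 0.17 and 0.08 ± 0.17 in YFP mice and 0.41 ± 0.17 in K8-PIK mice (adjusted p = 0.114).

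Sox4, a SOXC factor linked to progenitor cells and to epithelial-mesenchymal transition, was higher in every basal array than in every luminal array. YFP luminal cells had 9.39 and 8.72 at 8 weeks and 8.58 and 8.44 at 10 months. YFP basal cells had 10.05 and 9.81 at 8 weeks and 10.71 and 10.44 at 10 months. The controls therefore did not overlap between gates at either age. K8-PIK cells had 8.47 and 8.09 in the luminal and 10.08 and 9.84 in the basal gate. K5-PIK cells had 7.58 and 7.92 in the luminal and 10.05 and 9.72 in the basal gate, and the luminal pair was the lowest of all groups.

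Sox4 was higher in the basal gate by 0.87 ± 0.24 in YFP mice at 8 weeks (1.83-fold, adjusted p = 0.0158), by 2.07 ± 0.24 in YFP mice at 10 months (4.19-fold, adjusted p = 3.8e-05) and by 1.68 ± 0.24 in K8-PIK mice (3.21-fold, adjusted p = 0.000431). In K5-PIK mice it fell by 2.14 ± 0.24 from the basal to the luminal gate (4.40-fold, adjusted p = 4.16e-05). These comparisons called 30.3%, 43.4%, 19.5% and 23.6% of all genes, so a call there is common. All 4 of the other Sox4 probe sets were called in the same direction in each of the 4. The 8-week YFP call was lost without the second luminal array (0.54, adjusted p = 0.155) or the first basal array (0.75, adjusted p = 0.101). The test of a change of the gap with age gave 1.20 ± 0.34 (adjusted p = 0.177).

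Endothelial genes moved with the YFP basal gate: 9 of 12 were called higher there at 8 weeks and 10 of 12 at 10 months, with list means from 6.09 to 7.23 in basal and from 4.90 to 5.80 in luminal arrays. With the endothelial list mean as a covariate the Sox4 difference at 8 weeks was 1.13 (adjusted p = 0.0626), and at 10 months the call stayed. Between the K5-PIK gates none of the 12 endothelial genes was called by limma (0 at an unadjusted p under 0.05). The part of endothelial cells in the SOX differences was not tested beyond the covariate.

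Cells found outside the lineage of their Cre driver had Sox4 levels on the side of the gate they were sorted in. K8-PIK basal cells differed from YFP basal cells by 0.03 ± 0.24 (adjusted p = 0.967) and were 0.90 ± 0.24 higher than YFP luminal cells (adjusted p = 0.013, 28.7% of genes called). K5-PIK luminal cells were 2.83 ± 0.24 lower than YFP basal cells (7.09-fold, adjusted p = 4.55e-06). The K8-PIK basal call against YFP luminal cells was lost without the second YFP luminal array (0.57, adjusted p = 0.144) or the first K8-PIK basal array (0.79, adjusted p = 0.105).

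Within a gate, Sox4 was lower in PIK3CA-H1047R than in YFP cells in 3 of 4 comparisons, but none of the 4 passed the test. K8-PIK basal and K5-PIK luminal cells also differ from the YFP cells of their gate in the Cre driver and in where Cre was first active. The differences were -0.78 ± 0.24 in K8-PIK luminal cells (adjusted p = 0.224), -0.69 ± 0.24 in K5-PIK basal cells (adjusted p = 0.0645) and -0.76 ± 0.24 in K5-PIK luminal cells (adjusted p = 0.0764). In a limma fit with the replicate number as a block, a pairing that was not settled, the last 2 had adjusted p = 0.0307 and 0.0384. The 4 other Sox4 probe sets gave smaller differences and none passed. They ranged from -0.69 to -0.31 in K8-PIK luminal, -0.37 to -0.01 in K5-PIK basal and -0.73 to -0.23 in K5-PIK luminal cells. In YFP basal cells Sox4 was 0.65 ± 0.24 higher at 10 months than at 8 weeks (adjusted p = 0.162).

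**Figure D2:**
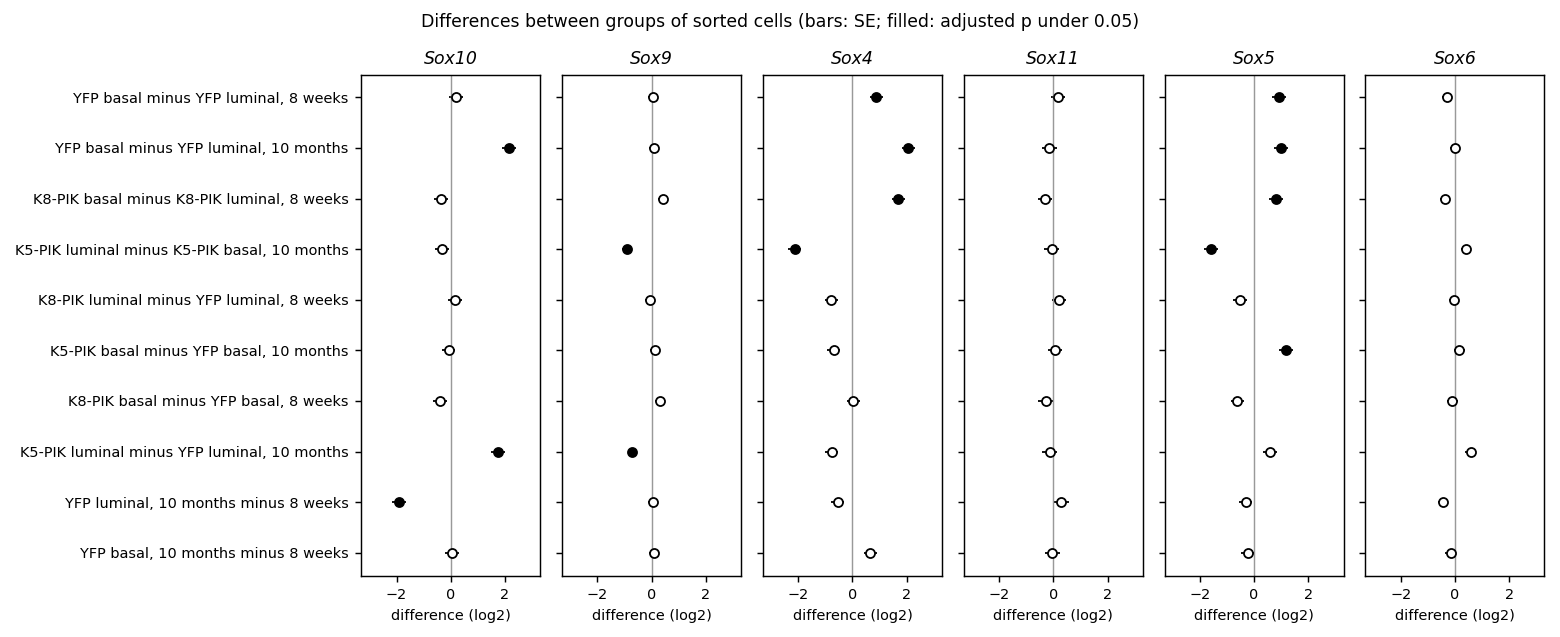
Differences in log2 expression between groups of sorted cells (x axis) for each SOX gene (panels) and comparison (y axis); points are limma differences, bars their SE, and filled points have an adjusted p under 0.05. Sox4 and Sox5 are filled in all 4 basal-luminal comparisons, and Sox10 in that of YFP mice at 10 months. Sox11 and Sox6 have no filled point among the 10 comparisons drawn, which leave out K5-PIK luminal minus YFP basal, where Sox6 was called (0.58 ± 0.19), and K8-PIK basal minus YFP luminal.

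Sox11, the SOXC relative of Sox4, gave a lower signal than Sox4, and its signal overlapped between the control gates. Its kept probe set ranged from 4.92 to 5.75 over the 16 sorted arrays. The YFP luminal arrays had 4.92, 5.69, 5.57 and 5.64 and the YFP basal arrays 5.42, 5.55, 5.53 and 5.38, so the gates overlapped. No Sox11 difference passed in any of the 23 comparisons. This reading is weak, because the 6 Sox11 probe sets correlated with the kept one at only 0.0765 to 0.673 and 2 of them were below the 40th percentile on all arrays. A second probe set gave 4.53 and 4.41 in K8-PIK basal cells against 3.60 and 3.59 in K8-PIK luminal cells (difference 0.88, adjusted p = 0.00712), where the kept set gave -0.31.

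Sox5, a SOXD partner of Sox9, was higher in basal than in luminal cells and highest in K5-PIK basal cells. YFP luminal cells read 6.03 and 6.37 at 8 weeks and 6.06 and 5.71 at 10 months, and YFP basal cells 7.00 and 7.21, and 6.84 and 6.92. K8-PIK cells read 6.14 and 5.23 in the luminal and 6.56 and 6.42 in the basal gate. K5-PIK cells read 6.53 and 6.43 in the luminal gate and 7.99 and 8.14 in the basal gate. The K5-PIK basal arrays were above all other arrays.

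Sox5 was higher in the basal gate by 0.91 ± 0.25 in YFP mice at 8 weeks (adjusted p = 0.017), 1.00 ± 0.25 at 10 months (adjusted p = 0.00687) and 0.80 ± 0.25 in K8-PIK mice (adjusted p = 0.0407). It fell by 1.58 ± 0.25 from the basal to the luminal gate of K5-PIK mice (adjusted p = 0.000577), the 1 of these calls that held without each array in turn. With the endothelial covariate the 2 YFP differences were 0.53 (adjusted p = 0.377) and 0.63 (adjusted p = 0.211), and that of the K8-PIK gates was 0.67 (adjusted p = 0.105). With the mean of the Sox5 probe sets the 8-week YFP difference was 0.44 (adjusted p = 0.0522) and that of the K8-PIK gates 0.38 (adjusted p = 0.117). Without single arrays the calls were lost at 8 weeks (first luminal array 0.74, adjusted p = 0.13; second basal array 0.80, 0.0835), at 10 months (second luminal array 0.82, 0.0703) and in K8-PIK mice (second luminal array 0.35, 0.417; first basal 0.73, 0.205; second basal 0.87, 0.0929).

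K5-PIK basal cells had 1.18 ± 0.25 more Sox5 signal than YFP basal cells at 10 months (2.27-fold, adjusted p = 0.0102; 16.3% of genes called). Without the first YFP basal array it was 1.14 (adjusted p = 0.079), and without the second K5-PIK basal array 1.10 (adjusted p = 0.082). Neither of the 2 other Sox5 probe sets tested passed: 1 gave 0.50 (adjusted p = 0.14) and the other -0.30 (adjusted p = 0.359). This result therefore rests on 1 of 4 probe sets, whose correlations with the others were 0.698, 0.342 and 0.125. The best correlated of those was called the same way as the kept set in both YFP comparisons of the gates (0.63 and 1.32), between the K5-PIK gates (-1.37), in K8-PIK tumours against YFP luminal cells (0.72) and in K5-PIK tumours against K5-PIK basal cells (-1.23). Neither of the 2 passed between the K8-PIK gates (0.46, adjusted p = 0.181; 0.28, 0.433), in K8-PIK-p53 tumours against YFP luminal cells (0.17, 0.719; -0.08, 0.797) or in K8-PIK tumours against K8-PIK luminal cells (0.60, 0.239; 0.23, 0.506). Between K5-PIK and YFP basal cells 7 of 12 endothelial genes were lower and none of the 8 basal markers was called (1 at an unadjusted p under 0.05). K8-PIK cells gave Sox5 differences of -0.51 ± 0.25 in the luminal gate (adjusted p = 0.494) and -0.61 ± 0.25 in the basal gate (adjusted p = 0.301).

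Sox6, the other SOXD factor, was close to the level of dim probe sets, and its kept probe set was above the 40th percentile on 16 of 28 arrays. YFP arrays ranged from 3.73 to 4.36 and the PIK3CA-H1047R sorted arrays from 3.73 to 4.66. The kept probe set was called in 1 comparison: K5-PIK luminal cells, at 4.11 and 4.66, were 0.58 ± 0.19 above YFP basal cells, at 3.79 and 3.81 (adjusted p = 0.0309). The call was lost without the second K5-PIK luminal array (0.31, adjusted p = 0.28), the first (0.57, 0.119) or second (0.60, 0.0919) YFP basal array, and with the endothelial covariate (0.49, 0.322).

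By comparison, 2 of 6 SOX genes were called higher in YFP basal cells at 8 weeks, with a median difference of 0.19 against -0.09 over all genes, and 3 of 6 at 10 months, with 0.54 against -0.12. Genes called higher made up 10.4% and 17.6% of those tested. None of the 6 was called between K8-PIK and YFP luminal cells (0.35% of genes; 1 at an unadjusted p under 0.05) or between K8-PIK and YFP basal cells (0.418%; 1). None was called between the ages in YFP basal cells (1.27%; 1) or for the change of the basal-luminal gap in K8-PIK mice (0.0076%; 1). Many of these comparisons use the same YFP arrays, so their counts are not independent.

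Across the 11 group means the SOX genes did not follow each other closely. The pair with the highest correlation was Sox9 and Sox4 (r = 0.65), followed by Sox4 and Sox5 (r = 0.54), and the lowest was Sox4 and Sox6 (r = -0.48). The points share gates, genotypes and array runs, so these values describe the groups.

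Of the 13 other mouse SOX genes on the arrays, 9 passed the filter on dim probe sets among sorted cells. At 8 weeks, Sox7 (1.25 ± 0.27, adjusted p = 0.00471) and Sox18 (0.97 ± 0.32, adjusted p = 0.0388), both SOXF factors of endothelial cells, were higher in YFP basal cells. Sox8, a SOXE factor like Sox9 and Sox10, was 0.75 ± 0.24 higher (adjusted p = 0.0324). At 10 months Sox7 (1.40) and Sox8 (0.89) were higher and Sox15 was lower (-0.56). Sox8 also fell by 0.88 ± 0.24 from the basal to the luminal gate of K5-PIK mice (adjusted p = 0.0178). The kept probe sets of Sox7 and Sox8 were near the level of dim probe sets, above the 40th percentile on 13 and 15 of 28 arrays. Sox15 was 0.73 higher in K5-PIK than in YFP basal cells.

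Genes known as SOX10 targets in glia and melanocytes followed the basal gate in mixed directions. Of 7 listed, 5 were tested, and in YFP mice 3 were higher and 1 was lower in basal cells at both ages. The median difference was 1.53 at 8 weeks against -0.09 over all genes. Calls were common there, with 30.3% of all genes called at 8 weeks and 43.4% at 10 months. Egr2, a transcription factor of myelinating Schwann cells, was higher by 3.00 ± 0.33 and 3.26 ± 0.33. Mia, a secreted protein of melanoma and cartilage, was higher by 2.07 ± 0.26 and 1.48 ± 0.26, and Ret, a receptor tyrosine kinase, by 1.53 ± 0.23 and 2.65 ± 0.23. Erbb3, a neuregulin receptor that is also a luminal gene, was lower, with differences of -2.45 ± 0.39 at 8 weeks and -2.99 ± 0.39 at 10 months.

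None of the 5 targets was called between 8 weeks and 10 months in YFP luminal cells, where Sox10 fell (1 at an unadjusted p under 0.05). Only 0.0608% of all genes were called there, so the absence of a call says little about the targets. Between K5-PIK and YFP luminal cells, where Sox10 was higher, Mia was higher too (1.20 ± 0.26, adjusted p = 0.0199) and the other 4 were not called (6.4% of all genes called). Genes of Schwann cells and melanocytes, the cell types best known for Sox10, were near the bottom of the scale. Of 11 listed, 7 were on the arrays and their mean was 3.65 to 3.93 on all arrays; the melanocyte genes Dct, Tyr, Tyrp1 and Mlana were never above the 40th percentile of an array, the highest reading being 3.57 for Tyr. Mbp, a myelin protein that was above that level throughout, was 1.00 ± 0.23 higher in YFP basal cells at 8 weeks.

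Among cartilage genes, mostly collagens known as targets of Sox9 acting with Sox5 and Sox6, 5 of the 8 tested of 10 listed were higher and none lower in YFP basal cells at 8 weeks (30.3% of all genes called), with a median of 1.11 against -0.09 over all genes. Col9a3 (2.15 ± 0.26), Col9a2 (1.64 ± 0.29), Col9a1 (1.47 ± 0.39) and Col11a1 (1.13 ± 0.34) led them. At 10 months 4 of 8 were higher (43.4% of genes called), among them Col27a1 (3.06 ± 0.25). In K8-PIK mice 5 were higher in the basal gate (19.5% called), and in K5-PIK mice 4 were lower in the luminal gate (23.6% called), where Sox9 was lower as well.

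K5-PIK basal cells, the group with the most Sox5, had more Col9a1 (1.73 ± 0.39, adjusted p = 0.0123) and Col9a3 (0.98 ± 0.26) and less Col27a1 (-0.83 ± 0.25) than YFP basal cells. K5-PIK luminal cells had more Col11a1 (1.85 ± 0.34, adjusted p = 0.00877) and Col9a3 (1.68 ± 0.26, adjusted p = 0.00428) than YFP luminal cells, although Sox9 was lower there. Of the SOXC targets Tead2 and Tubb3, Tead2, a Hippo pathway factor, moved against Sox4: its basal minus luminal differences in YFP mice were -1.80 ± 0.34 and -2.45 ± 0.34. Tubb3, a neuronal tubulin, was 1.20 ± 0.30 higher in YFP basal cells at 8 weeks.

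Of 12 mammary progenitor genes, 4 were higher in K5-PIK than in YFP luminal cells together with Sox10: Tspan8 (2.06 ± 0.37), Kit (1.65 ± 0.30), Lgr5 (1.22 ± 0.28) and Elf5 (1.15 ± 0.28). That comparison called 6.4% of all genes. Elf5 and Kit are luminal progenitor genes and Lgr5 and Tspan8 are used as stem cell markers. None of the 12 was called between the ages in YFP luminal cells (1 at an unadjusted p under 0.05), where only 0.0608% of all genes were called.

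The genes whose group means most resembled those of each SOX gene were found by Pearson correlation over 11 groups among 13663 genes, and are given as a description. For Sox4 they were Ankrd10 (r = 0.96), Synpo2 (0.96) and Bmt2 (0.95). For Sox5 they were Ttc7b (0.95), Nynrin (0.94) and Ssbp3 (0.94). For Sox10, Kifc3 (0.82), Jph1 (0.81) and Arid1a (0.79) came closest, and for Sox9, Tab2 (0.88), Prss23 (0.87) and Gna13 (0.84). Sox11 was nearest to Dmrt3, Evx1 and Rab3b (0.88 to 0.90) and Sox6 to Xylb, Rskr and Cracr2b (0.90 to 0.91); both have small ranges between groups.

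In tumours Sox10 ranged widely. K8-PIK tumours had a lowest value of 3.95, a median of 9.12 and a highest value of 9.78. The K8-PIK-p53 tumours had 7.69 and 8.49, below all sorted arrays outside YFP luminal cells at 10 months (lowest 8.81), and the K5-PIK tumours had 9.59, 9.0 and 8.67. The low value was K8-PIK tumour 3; the other 6 lay between 8.69 and 9.78. All 3 Sox10 probe sets read it lowest among the tumours, the others at 4.84 and 5.49. The mean over the 7 tumours was 8.53 ± 2.07 (SD) and over the other 6 it was 9.30 ± 0.47.

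On the array of tumour 3, Mia was at 4.40 against 7.87 to 10.99 in the other K8-PIK tumours, Erbb3 at 6.66 and Elf5, the alveolar and luminal progenitor factor, at 3.76. Sox11 was highest in that tumour among the K8-PIK tumours, at 6.42 with the kept probe set and at 6.97 with a second. Its Sox9, at 10.34, and Sox5, at 7.05, were the medians of the 7 K8-PIK tumours, and its Sox4 of 8.74 was the lowest.

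**Figure D3:**
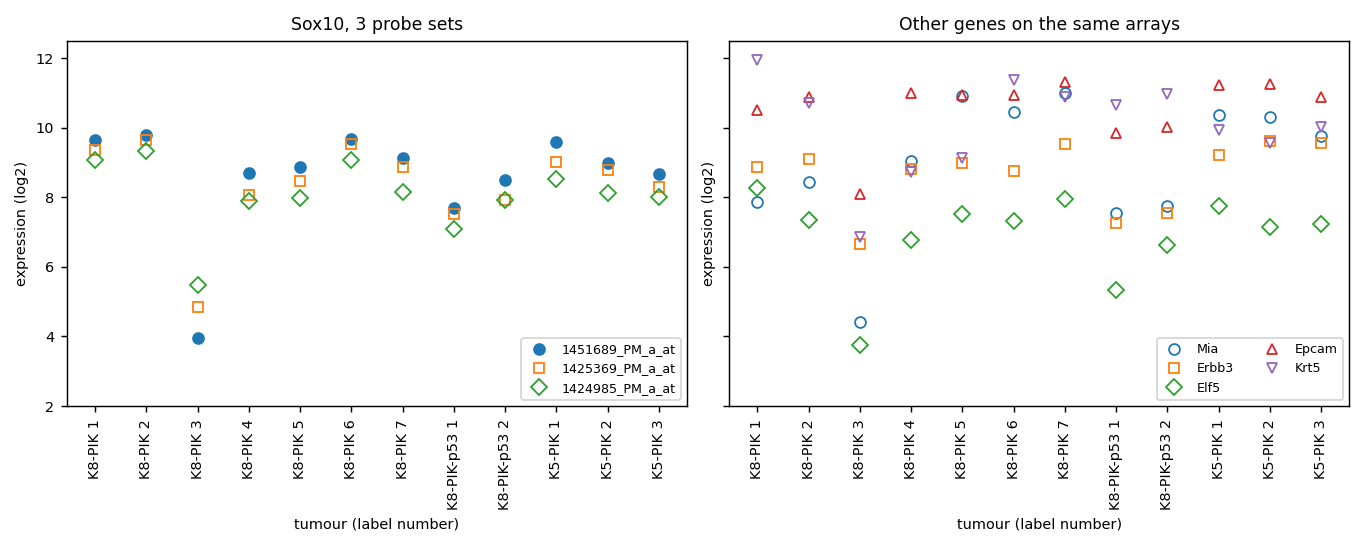
Log2 expression (y axis) on each of the 12 tumour arrays (x axis) of the 3 Sox10 probe sets (left; filled circles are the kept set) and of Mia, Erbb3, Elf5, Epcam and Krt5 (right). K8-PIK tumour 3 is lowest with every Sox10 probe set, at 3.95, 4.84 and 5.49, and is lowest for Mia, Erbb3, Elf5, Epcam and Krt5 as well.

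The K8-PIK tumours had 0.34 ± 0.73 more Sox10 signal than YFP luminal cells of both times together (adjusted p = 0.827). Without tumour 3 the difference was 1.10 ± 0.24 (adjusted p = 0.0065), past the threshold. This control group joins the 8-week arrays, at 8.99 and 9.30, with the 10-month arrays, at 7.47 and 7.02, and the 6 tumours overlap the former. Against K8-PIK luminal cells the Sox10 difference was -0.77 ± 0.93 with tumour 3 and 0.00 ± 0.30 without it, neither called (adjusted p = 0.698 and 0.996). K8-PIK-p53 tumours differed from K8-PIK tumours by -0.44 ± 1.21 (adjusted p = 0.86), and by -1.21 ± 0.35 without tumour 3 (adjusted p = 0.0609). K5-PIK tumours differed from K8-PIK tumours by 0.55 ± 1.04 with tumour 3 and by -0.21 ± 0.31 without it, neither called (adjusted p = 0.871 and 0.87).

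Sox4 in all 12 tumours lay below every sorted basal array and between the 2 YFP luminal values of 8 weeks, 8.72 and 9.39. K8-PIK tumours ranged from 8.74 to 9.32 with a median of 9.04, K8-PIK-p53 tumours had 8.98 and 8.94, and K5-PIK tumours had 9.02, 9.20 and 9.12. The K5-PIK tumours had 1.14 ± 0.17 less Sox4 than YFP basal cells (2.20-fold, adjusted p = 9.45e-05; 30% of genes called), with no overlap and the same call from all 4 other probe sets.

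Against the PIK3CA-H1047R cells of their own genotype, the K5-PIK tumours were 0.77 ± 0.20 lower in Sox4 than the basal cells (adjusted p = 0.0128; 17.3% of genes called) and 1.36 ± 0.20 higher than the luminal cells (adjusted p = 0.00362; 0.637%). The first was lost without the first K5-PIK basal array (-0.61, adjusted p = 0.168) and the second without the first K5-PIK luminal array (1.20, adjusted p = 0.135). Of the 4 other Sox4 probe sets, 4 were called the same way in the first (-1.26 to -0.99) and 2 in the second (0.71 to 1.31). The K8-PIK tumours were 0.79 ± 0.18 higher than K8-PIK luminal cells (adjusted p = 0.0289; 2.5% of genes called), and 0.84 higher without tumour 3 (adjusted p = 0.0228). None of the 4 other probe sets passed there (0.19 to 0.45), and the call was lost without the first (0.98, adjusted p = 0.104) or second (0.60, adjusted p = 0.441) K8-PIK luminal array. K8-PIK tumours and YFP luminal cells overlapped in Sox4.

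Sox5 was higher in tumours of the K8 driver than in luminal cells. K8-PIK tumours ranged from 6.34 to 7.72 with a median of 7.05, K8-PIK-p53 tumours had 7.43 and 6.92, and K5-PIK tumours had 7.33, 6.45 and 7.13. All but 1 of the K8-PIK tumours were above all 4 YFP luminal arrays, the highest of which was 6.37. Sox5 was 0.95 ± 0.24 higher in K8-PIK tumours than in YFP luminal cells (adjusted p = 0.0163; 10.6% of genes called), 0.94 without tumour 3 (adjusted p = 0.0224). It was 1.14 ± 0.33 higher in K8-PIK-p53 tumours (adjusted p = 0.0183; 24% called), but the mean of the Sox5 probe sets gave 0.38 (adjusted p = 0.0723) and 0 of 2 other probe sets passed. The gain over K8-PIK luminal cells was 1.30 ± 0.31 (adjusted p = 0.0325), and 1.29 without tumour 3 (adjusted p = 0.0377).

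The Sox5 calls of the tumours were sensitive to single arrays. Without the first 8-week or second 10-month YFP luminal array they were 0.86 (adjusted p = 0.0959) and 0.86 (0.0905) for K8-PIK tumours, and 1.05 (0.0541) and 1.05 (0.0529) for K8-PIK-p53 tumours, which had 0.88 (0.197) without their first array. Against K8-PIK luminal cells they were 1.76 (0.0731) and 0.85 (0.535) without the first and second luminal array. The K5-PIK tumours were 1.09 ± 0.35 lower in Sox5 than K5-PIK basal cells (adjusted p = 0.0357). That call was lost without either K5-PIK basal array (-1.17, 0.129; -1.01, 0.178), without K5-PIK tumour 2 (-0.83, 0.14) or without K5-PIK tumour 3 (-1.17, 0.0503). Fibroblast genes also moved with the tumours: 4 of 6 tested were higher in K8-PIK-p53 tumours and 2 of 6 in K8-PIK tumours than in YFP luminal cells. The fibroblast list means were 7.72 and 8.29 in K8-PIK-p53 tumours, 5.08 to 8.32 in K8-PIK tumours and 5.00 to 6.08 in YFP luminal cells; their part in the SOX results was not tested.

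With its kept probe set, Sox9 did not pass in any tumour comparison. K8-PIK tumours ranged from 9.39 to 10.60 with a median of 10.34, K5-PIK tumours had 10.52, 10.58 and 10.20, and K8-PIK-p53 tumours were lower than all but 1 K8-PIK tumour at 9.62 and 9.60. The K8-PIK-p53 tumours differed by -0.57 ± 0.24 from YFP luminal cells (adjusted p = 0.0851, and 0.0449 with the replicate number as a block) and by -0.61 ± 0.27 from K8-PIK tumours (adjusted p = 0.245). Of the 2 other Sox9 probe sets, 1 was called lower in K8-PIK-p53 tumours than in YFP luminal cells, and the 2 gave -0.90 and -0.17. K5-PIK tumours were 0.95 ± 0.25 above K5-PIK luminal cells (adjusted p = 0.0875), without overlap.

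The kept probe sets of Sox11 and Sox6 were not called in tumours either. Sox11 had 5.75 and 5.95 in K8-PIK-p53 tumours, 6.52, 5.73 and 5.61 in K5-PIK tumours and 5.04 to 6.42 with a median of 5.43 in K8-PIK tumours. With the second Sox11 probe set, K8-PIK-p53 tumours had 6.31 and 4.86, 1.74 higher than YFP luminal cells (adjusted p = 0.0354). Sox6 ranged from 3.69 to 4.68 in K8-PIK tumours with a median of 4.47, was 3.81 and 3.38 in K8-PIK-p53 tumours and 4.47, 4.03 and 4.57 in K5-PIK tumours. Of the 2 other Sox6 probe sets, 1 was called higher in K5-PIK tumours than in K5-PIK basal cells, and the 2 gave 0.60 and 0.75. With the mean of probe sets Sox6 passed there (limma adjusted p = 0.0468) and in K5-PIK tumours against YFP basal cells (0.0384). No SOX gene of the 6 differed between K5-PIK and K8-PIK tumours by limma (0 of 6 also at an unadjusted p under 0.05), a comparison with 0% of genes called and 1225 genes at an unadjusted p under 0.05. Between K8-PIK-p53 and K8-PIK tumours 0 of 6 were called, with 2 at an unadjusted p under 0.05 and 0.325% of genes called.

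**Figure D4:**
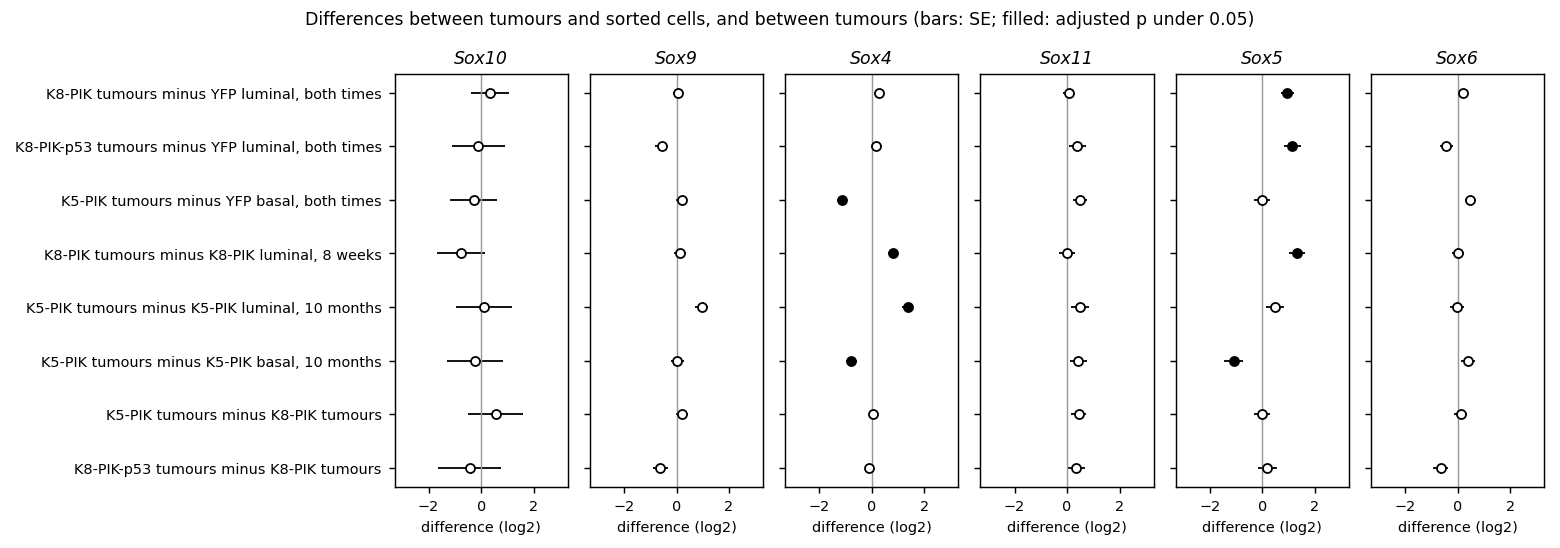
Differences in log2 expression (x axis) between tumours and sorted cells, and between tumour groups (y axis), for each SOX gene (panels); points are limma differences, bars their SE, and filled points have an adjusted p under 0.05. Only Sox4 and Sox5 have filled points, and the Sox10 bars, drawn with K8-PIK tumour 3 included, are the longest, with 0.34 ± 0.73 for K8-PIK tumours against YFP luminal cells.

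Across the 7 K8-PIK tumours, 15 pairs of SOX genes were compared by exact permutation of 5040 orders, two-sided. Sox9 and Sox5 moved in opposite directions (Pearson r = -0.77, exact p = 0.0288; Spearman rho = -0.93, exact p = 0.00675), and r was -0.95 without the 2 tumours farthest from the Sox9 median. Adjusted over the 15 pairs these were 0.22 and 0.101, so no pair passed. Sox10 and Sox4 had r = 0.71 (exact p = 0.0294, adjusted 0.22) and 0.14 without the 2 tumours farthest in Sox10, so that relation rests on those tumours.

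Targets in the tumours followed other patterns. Mitf, the melanocyte factor that SOX10 activates, was higher in K8-PIK (1.09 ± 0.24, adjusted p = 0.0082) and K8-PIK-p53 tumours (1.60 ± 0.34, adjusted p = 0.00257) than in YFP luminal cells, and in K5-PIK tumours (1.00 ± 0.30) than in YFP basal cells. Egr2 was 2.02 ± 0.32 higher in K8-PIK tumours than in YFP luminal cells and 1.21 ± 0.39 lower in K5-PIK tumours than in YFP basal cells. Egr2 was itself higher in YFP basal than in YFP luminal cells, as given above, so these signs do not compare the tumour groups. Without K8-PIK tumour 3, an alternative chosen after seeing the data for these genes, Mitf was 1.13 (adjusted p = 0.00841) and Egr2 1.91 (adjusted p = 0.00106) higher in K8-PIK tumours. Among the cartilage genes 3 of 9 were higher in K8-PIK tumours than in YFP luminal cells (10.6% of all genes called), with Col11a1 at 2.27 ± 0.50. Without tumour 3 it was 6 of 9, where 10.7% of genes were called, with Col11a1 at 2.68 ± 0.35. In K8-PIK-p53 tumours 4 of 9 were higher (24% called), with Col27a1 at 3.00 ± 0.60, Col11a1 at 2.66 ± 0.69 and Acan, the cartilage proteoglycan, at 2.55 ± 0.54. The kept Sox9 probe set was not called in these comparisons.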

How the data were processed

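RNA of 28 sorted cell samples was hybridised to Affymetrix mouse arrays. The values are log2 expression of 45141 probe sets as deposited by the authors, made with R 2.14.0 per the submitters' processing notes; background correction, summarisation and normalization are not given in the sources used here. No rescaling was applied. Of the probe sets, 28898 had 1 gene symbol in the platform annotation, 551 had several and 15692 were not listed; only the first kind was used. Each gene was read by its probe set with the highest mean.

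Genes above the 40th percentile of an array (3.89 to 3.99) on at least 2 arrays of a fit entered limma 3.58.1 (R 4.3.3), where every group had its own mean and variances were moderated. Sorted cells (16 arrays, 8 groups, 13150 genes), tumours (12 arrays, 3 groups, 13244 genes) and all arrays (28 arrays, 11 groups, 13663 genes, for tumours against sorted cells) were fitted separately. Calls required a Benjamini-Hochberg adjusted p under 0.05 over all genes of the fit. Differences of differences were contrasts in the same fits. Folds are powers of 2 of these differences. The number of arrays limits the precision. The fit was tested on simulated data. Correlations between tumours used exact permutation in scipy 1.17.1.

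The alternatives were the mean of a gene's probe sets, each other probe set, no filter on dim probe sets, a trended robust prior, quantile normalization, the replicate number as a block, the endothelial list mean as a covariate, 1 fit of all arrays and leaving out each array. For the target genes, leaving out K8-PIK tumour 3 was added after seeing the data. Other genes are named by rule: of each gene list up to 4 called genes with the largest change in a comparison, the 3 genes most like each SOX gene, and lineage genes; Tyr, Dct, Tyrp1, Mlana, Mbp, Tead2, Tubb3 and genes named for K8-PIK tumour 3 are given as list members or chosen after their values were seen. The SOX genes and gene lists were chosen with earlier results of these data known.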

Additional observations from a re-analysis of the deposited data

Results flagged for a closer look

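Sox10 in K8-PIK tumour 3 was 3.95 on the log2 scale, and the next lowest of the 7 K8-PIK tumours was 8.69. The gap was 0.813 of the whole range, above Dixon's critical value of 0.568 for 7 samples. Such a test marks about 1 in 20 groups by chance, and the lowest or highest values of the other 5 SOX genes in this group did not pass it.

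The basal minus luminal difference in Sox10 at 10 months differed between K5-PIK and YFP mice when the difference itself was tested (K5-PIK minus YFP -1.82 ± 0.36, limma adjusted p = 0.017). Of the 2 other Sox10 probe sets 1 passed (-1.64, adjusted p = 0.023) and the other gave -0.75 (adjusted p = 0.274). In YFP mice all basal arrays were above all luminal arrays, and in K5-PIK mice the gates overlapped. The YFP gates came from mice of different Cre drivers and the K5-PIK gates from mice of the same driver. The contrast uses the same YFP luminal arrays at 10 months as the other Sox10 calls of the main fits.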

How the results depend on the processing

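No call between groups for Sox10, Sox9, Sox4, Sox5 or Sox6 reversed sign under the mean of probe sets, no filter on dim probe sets, the trended robust prior, quantile normalization, the replicate block, the endothelial covariate, the fit of all arrays or leaving out arrays. With single other probe sets, 1 dim Sox5 set gave the opposite sign for YFP basal minus YFP luminal at 8 weeks (-0.0787), K5-PIK basal minus YFP basal (-0.304), K5-PIK luminal minus K5-PIK basal (0.357), K8-PIK-p53 tumours minus YFP luminal (-0.0814) and K5-PIK tumours minus K5-PIK basal (0.456), and a second Sox11 set did so for K8-PIK basal minus K8-PIK luminal (0.875) and minus YFP luminal (0.723). The cause was not tested.

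Counts of SOX genes called that moved by over 1.5 times are listed here. Smaller moves were 3 to 2 for YFP at 10 months with the endothelial covariate, 3 to 2 for K5-PIK luminal minus YFP basal with the mean of probe sets and with the fit of all arrays, 2 to 3 for K5-PIK minus YFP luminal with the replicate block, and 2 to 3 for K5-PIK tumours minus K5-PIK basal with the mean of probe sets. With the mean of probe sets they were 1 for YFP basal minus luminal at 8 weeks (2 in the main fit), 0 for K5-PIK minus YFP basal (1), 1 for the K8-PIK gates (2), 0 for age in YFP luminal cells (1), 2 for K5-PIK tumours minus YFP basal (1) and 1 for K8-PIK tumours minus K8-PIK luminal (2). With the endothelial covariate they were 0 for YFP at 8 weeks, 1 for the K8-PIK gates and 1 for K5-PIK luminal minus YFP basal (3). With the fit of all arrays they were 1 for YFP at 8 weeks, 1 for YFP at 10 months (3), 0 for K5-PIK minus YFP basal, 1 for the K8-PIK gates, 0 for K5-PIK minus YFP luminal (2), 0 for age in luminal cells and 0 for the K5-PIK gap (1). Quantile normalization gave 1 for K5-PIK minus YFP luminal. No filter on dim probe sets and the trended robust prior gave 2 for the K5-PIK gap.

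The replicate block gave SOX counts of 2 for K5-PIK minus YFP basal, 2 for the K5-PIK gap and 2 for K8-PIK-p53 tumours minus YFP luminal (1), and ended no call. Whether the numbers pair the arrays was not settled. Same-numbered arrays of sorted groups correlated in their deviations at -0.0775 to 0.386 (median 0.0834), with 12 of 28 pairs of groups over 0.1. Those of the K5-PIK and K8-PIK tumours correlated at -0.094 to 0.212.

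Leaving out each array gave SOX counts of 1 to 1 for YFP at 8 weeks, 2 to 3 for YFP at 10 months, 0 to 1 for K5-PIK minus YFP basal, 1 to 2 for the K8-PIK gates, 0 to 1 for K8-PIK basal minus YFP luminal, 3 to 4 for the K5-PIK gates, 1 to 3 for K5-PIK minus YFP luminal, 2 to 3 for K5-PIK luminal minus YFP basal, 0 to 0 for age in luminal cells and 0 to 1 for the K5-PIK gap. For tumours it gave 0 to 2 for K8-PIK minus YFP luminal, 1 to 1 for K5-PIK minus YFP basal, 0 to 1 for K8-PIK-p53 minus YFP luminal, 0 to 2 for K8-PIK minus K8-PIK luminal, 0 to 1 for K5-PIK minus K5-PIK luminal and 0 to 2 for K5-PIK minus K5-PIK basal. A lone remaining array was assumed to vary like the others. Signal near that of dim probe sets limits Sox6, and disagreement between probe sets limits Sox11.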

Other observations

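Sox2, a pluripotency SOX factor that was picked out after its values were seen, was above the 40th percentile on 1 of the 28 arrays. That array was of a K8-PIK-p53 tumour and read 6.17, while the other K8-PIK-p53 tumour read 3.26. The highest reading in K8-PIK tumours was 3.06 and in K5-PIK tumours 2.93, and in YFP cells the highest was 2.80.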
